A study of Mus musculus with 6 samples.

Results

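The genes described here encode ATP-dependent chromatin remodellers, lysine acetyltransferases with their subunits, and bromodomain proteins, measured in regulatory T cells (Tregs) with and without the deacetylase HDAC11. Members were chosen by name, as every probe set with 1 gene symbol that starts with Smarc, Arid, Chd and a digit, Ino80, Baz, Brd, Bptf, Atrx, Hells, Ep300, Crebbp, Kat and a digit, Ing and a digit, Brpf, Actl6a or Pbrm1. This rule took 108 of 22626 probe sets tested and 54 of 12393 genes, of which 32 had more than 1 probe set and 22 had 1. A further 2 probe sets that name several genes were left out.

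Chromatin remodellers use ATP to slide, evict or exchange nucleosomes, and are grouped into the SWI/SNF, ISWI, CHD and INO80 families by their ATPase. Lysine acetyltransferases add the acetyl groups that deacetylases such as HDAC11 remove, and bromodomains bind acetylated lysine, so the members write, read and act on the mark. In Tregs, both the histones at the Foxp3 locus and the Foxp3 protein itself are known to be acetylated.

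The study set 3 arrays of HDAC11-/- Tregs, labelled fl-HDAC11/Foxp3cre, against 3 arrays of Tregs from wild type (WT) C57BL6 mice. Cre was expressed from the Foxp3 locus together with YFP, so that the floxed gene is deleted in Foxp3+ cells, whereas the WT label names no Cre allele, and an effect of the allele cannot be told apart from the deletion. Cells were CD4+CD25+ and were separated with magnetic beads, so the fraction can hold other cells. The labels give neither the age and sex of the mice nor whether the arrays of a genotype came from separate mice, and the p-values therefore measure only the spread between these arrays, which may be technical.

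All values are log2 expression levels after robust multiarray averaging (RMA), so that a difference of 1 is a 2-fold change, and all differences are HDAC11-/- minus WT. A probe set was called when its limma adjusted p (Benjamini-Hochberg over all probe sets) was under 0.05 and it differed by at least 1.5-fold, which is 0.585 on the log2 scale. A gene was represented by its brightest probe set, the one with the highest mean over the 6 arrays, and its other probe sets are called dimmer.

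Several facts of the whole series bear on every member. Both Hdac11 probe sets differed by less than the call required (by -0.12, SE 0.07, adjusted p = 0.222, and by -0.1, SE 0.12, adjusted p = 0.532), and no source used here places their probes relative to the deleted part. Of 19 mitosis genes measured, 18 were called higher, with a summed level of 8843 to 9082 in HDAC11-/- arrays against 2655 to 2824 in WT arrays (linear units). Of 15 immediate early genes, 9 were called higher, with a sum of 57648 to 58405 in HDAC11-/- arrays against 14469 to 14993 in WT arrays. Of 12 B cell genes, 8 were called lower, with a sum of 2639 to 2661 in HDAC11-/- arrays against 5850 to 5964 in WT arrays, while Pax5, Ebf1 and Fcer2a did not exceed the bacterial controls in either genotype. H2-Aa (log2 mean 9.59 in HDAC11-/- against 11.2 in WT) and Cd74 (9.91 against 10.7) had the highest levels of these genes and weigh most in that sum. Of 11 monocyte and macrophage genes, 4 were called higher, with a sum of 533 to 574 in HDAC11-/- arrays against 396 to 422 in WT arrays, and Cd14, Adgre1, Fcgr1 and the called C1qb did not exceed the controls in either genotype. Of 8 CD8 T and NK cell genes, Ncr1 and Fcer1g were called lower, with a sum of 1734 to 1858 in HDAC11-/- arrays against 2122 to 2197 in WT arrays. Of 7 dendritic cell genes Batf3 was called lower, with a sum of 799 to 816 in HDAC11-/- arrays against 900 to 945 in WT arrays, and Xcr1 and Cd209a did not exceed the controls. None of 9 T cell genes was called by the brightest probe set. Of 9 Treg genes, Il10 was called higher, with a sum of 19921 to 20228 in HDAC11-/- arrays against 18215 to 18443 in WT arrays. Foxp3 was the only Treg gene that did not exceed the bacterial controls on any of the 6 arrays. The part of these other cell types, of cycling and of handling in the members' values was not tested, and fewer cells of a type cannot be told apart from less RNA per cell.

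Hells is shown by sequence because it had the largest increase of any member, together with Actl6a, the only other gene called higher by its brightest probe set. The 250 bases before each start site are printed 5′ to 3′ from RefSeq (build GRCm38.p6, both genes on the + strand), with the letters of an E2F motif in capitals. The windows are chr19:38930740-38930989 for Hells and chr3:32708296-32708545 for Actl6a.
Hells: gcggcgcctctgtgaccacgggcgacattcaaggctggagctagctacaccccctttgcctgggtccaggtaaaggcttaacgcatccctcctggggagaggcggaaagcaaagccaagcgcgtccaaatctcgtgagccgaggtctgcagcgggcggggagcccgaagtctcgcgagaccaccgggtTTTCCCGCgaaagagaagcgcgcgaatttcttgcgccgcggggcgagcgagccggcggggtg
Actl6a: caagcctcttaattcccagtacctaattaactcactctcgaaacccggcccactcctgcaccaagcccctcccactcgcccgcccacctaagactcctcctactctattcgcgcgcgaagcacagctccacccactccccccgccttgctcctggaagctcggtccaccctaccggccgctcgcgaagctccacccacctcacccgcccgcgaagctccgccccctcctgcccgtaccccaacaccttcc
E2F proteins are known as the transcription factors of genes needed for DNA replication. The letters searched were TTTCCCGC, TTTGGCGC, TTTCGCGC and TTTGCCGC on both strands, and the Hells window held 1 match, 62 to 55 bases before the start, while the Actl6a window held none. Of the 54 members, 46 had a RefSeq window, and 6 of these (13%) held the letters, against 2.16% of 27025 genes with a window. Besides Hells these were Arid1a, Brd7, Ing3, Kat2a and Smarcd1, none of which had a called probe set. The 27025 genes include genes not measured on the array and were not matched to the members in expression or base composition. The shares of 13% and 2.16% therefore show no enrichment, and a match is a description of the letters only.

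By the brightest probe set, 2 of 54 member genes (3.7%) were called higher, where 3.46% of all genes were, and 4 (7.41%) were called lower, where 3.72% of all genes were. Without the fold threshold, 7 members (13%) lay past the adjusted p in the higher direction, against 22.9% of all genes, and 17 (31.5%) in the lower direction, against 23.2% of all genes. With arrays scaled on the cre spike-in these counts turned round, to 43 members in the higher direction and 3 in the lower. The median log2 fold change of the 54 members was -0.08, against -0.04 over all genes. Counted over probe sets, 3 of 108 (2.78%) were called higher, against 3.87% of all probe sets, and 19 (17.6%) were called lower, against 5.03% of all probe sets. All 22 called member probe sets had no overlap between the genotypes. Members without a call could lack overlap too, such as the brightest Arid1a probe set (a gap of 0.07, adjusted p = 0.0598). The share over all probe sets was not counted, so the lack of overlap adds nothing to the calls. Most of the 19 were dimmer probe sets, 15 of them in 11 genes, as the plot of every member probe set shows.

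**Figure D1:**
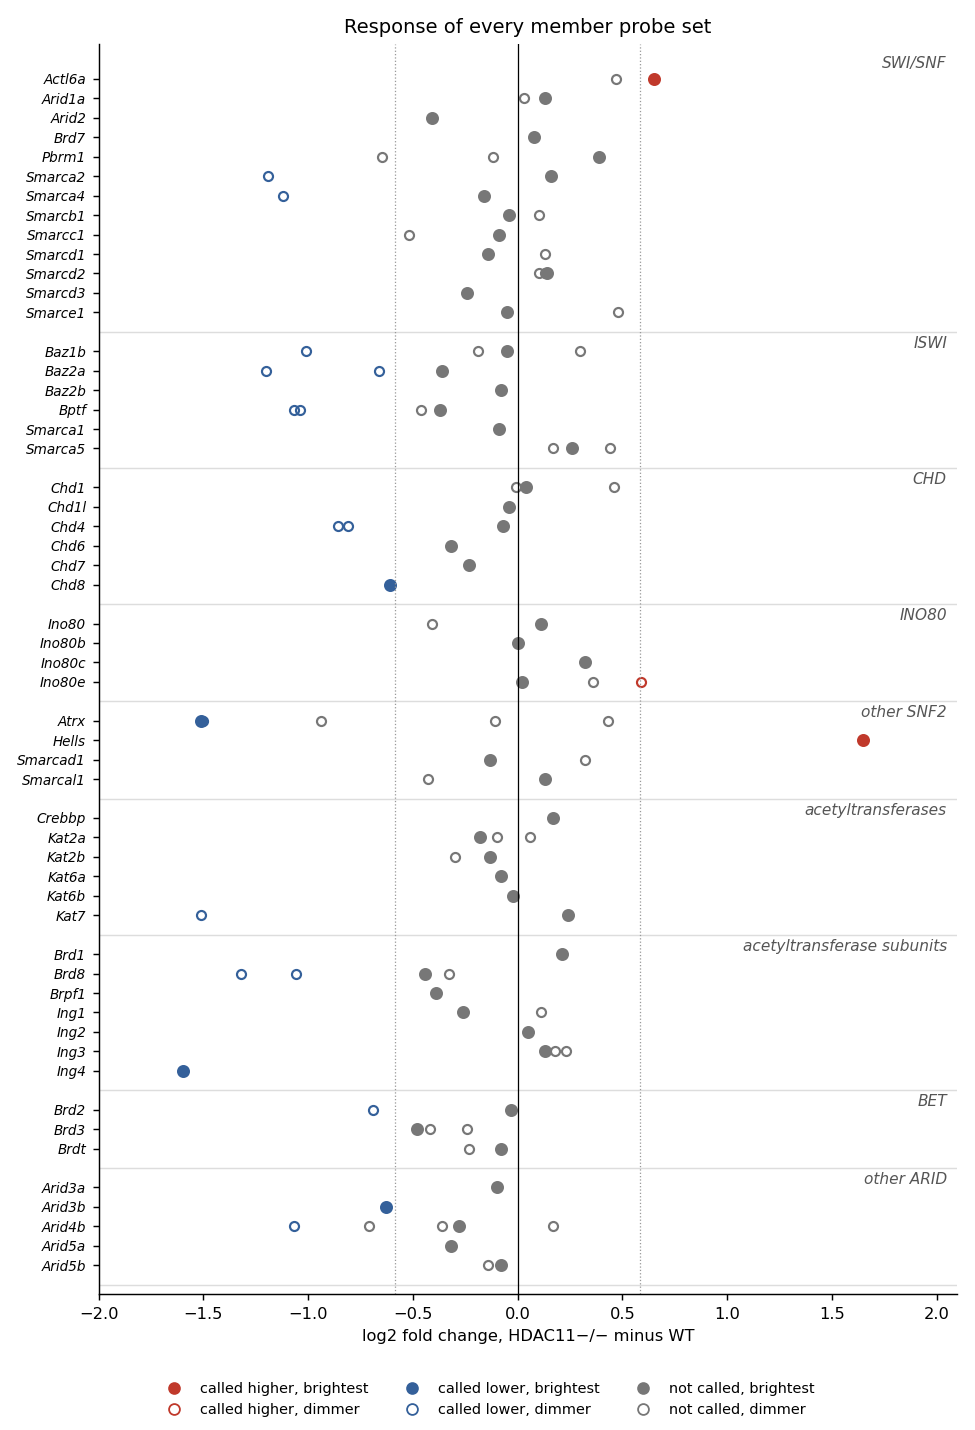
Log2 fold change (x axis, HDAC11-/- minus WT) of every one of the 108 member probe sets, 1 row per gene, grouped by role; filled points are the brightest probe set of a gene, open points its dimmer probe sets, and dotted lines mark 1.5-fold. Most blue points, the probe sets called lower, are open and lie left of the filled point of their own gene, and Hells stands alone on the right at 1.65. On the scale of the cre spike-in all points lie 0.48 further to the right, which turns many filled points left of 0 to the right of it.

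Hells, an SNF2-family ATPase needed for DNA methylation at repeats, had levels of 9.16, 9.17 and 9.23 in HDAC11-/- arrays, against 7.32, 7.66 and 7.64 in WT arrays. The genotypes were apart by 1.49 between the nearest arrays, and the difference was 1.65 (SE 0.1, adjusted p = 5.86e-05), a 3.13-fold increase. Its call held under every alternative tried, and its single probe set leaves no second measurement. Atrx, which deposits histone H3.3 together with Daxx, is, like Hells, an ATPase outside the SWI/SNF, ISWI, CHD and INO80 families. Among member ATPases outside these families it was the only other one with a call, and it went the other way. Its brightest probe set had 8.14, 7.33 and 7.04 in HDAC11-/- arrays, against 9.54, 9.03 and 8.45 in WT arrays, a fall by 1.51 (SE 0.36, adjusted p = 0.0138).

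The 5 Atrx probe sets did not respond alike. A dimmer one fell by 1.5 (SE 0.34, adjusted p = 0.0117), with 6.35, 5.76 and 5.6 in HDAC11-/- arrays and 8.14, 7.08 and 6.98 in WT arrays. Another differed by -0.94 with overlapping genotypes (adjusted p = 0.0795), and one near the control range by -0.11 (adjusted p = 0.49). The last did not exceed the bacterial controls on any WT array, and its measured difference was 0.43 (adjusted p = 0.0348). Against the WT control level it was only 1.015-fold higher in HDAC11-/-, where not every array exceeded the controls. The call of the brightest Atrx probe set was lost with an intensity trend and robust prior, at an adjusted p of 0.0522. Smarcad1 and Smarcal1, the remaining member ATPases outside the SWI/SNF, ISWI, CHD and INO80 families, had no called probe set.

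Of 13 SWI/SNF members, 1 was called higher and none lower by the brightest probe set, with a median log2 fold change of -0.04. Actl6a, an actin-like subunit of SWI/SNF that also serves INO80 and an acetyltransferase complex, had 9.79, 9.82 and 9.87 in HDAC11-/- arrays, against 9.04, 9.22 and 9.26 in WT arrays. It rose by 0.65 (SE 0.07, adjusted p = 0.000539), and its dimmer probe set differed by 0.47 (SE 0.04, adjusted p = 0.00034), under the fold threshold. The call rests on a small margin, since the difference was 0.51 with arrays scaled on reference genes and 0.58 without WT array 1. The called probe set is an _x_at one, and without _s_at and _x_at probe sets Actl6a was read by the dimmer one and not called.

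The PBAF form of SWI/SNF is marked by Arid2, Pbrm1 and Brd7. Arid2, which carries an AT-rich DNA-binding domain, had 10.66, 10.66 and 10.64 in HDAC11-/- arrays, against 11.09, 11.08 and 11 in WT arrays. This difference of -0.41 (SE 0.05, adjusted p = 0.000768) was separated from WT by 0.34 but lay under the fold threshold. Pbrm1, which holds several bromodomains, had 10.92, 10.93 and 10.82 in HDAC11-/- arrays, against 10.47, 10.58 and 10.45 in WT arrays by its brightest probe set. Its difference there was 0.39 (adjusted p = 0.00222), and its dimmer probe sets differed by -0.65 (adjusted p = 0.0517) and -0.12 (adjusted p = 0.326).

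The ATPases Smarca4 (BRG1) and Smarca2 (BRM) were each read by a pair of probe sets that disagreed. The brightest Smarca4 probe set had 10.61, 10.66 and 10.64 in HDAC11-/- arrays, against 10.8, 10.78 and 10.8 in WT arrays, a difference of -0.16 (adjusted p = 0.0222). The dimmer one had 8.11, 7.9 and 7.66 in HDAC11-/- arrays, against 9.28, 9.03 and 8.72 in WT arrays, and fell by 1.12 (SE 0.17, adjusted p = 0.00204). Smarca2 showed the same split of responses. Its brightest probe set had 8.87, 8.87 and 8.92 in HDAC11-/- arrays against 8.76, 8.84 and 8.59 in WT arrays, a difference of 0.16 (adjusted p = 0.116). Its dimmer probe set had 6.7, 6.35 and 6.33 in HDAC11-/- arrays against 8.13, 7.43 and 7.37 in WT arrays, and fell by 1.19 (SE 0.22, adjusted p = 0.00484).

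**Figure D2:**
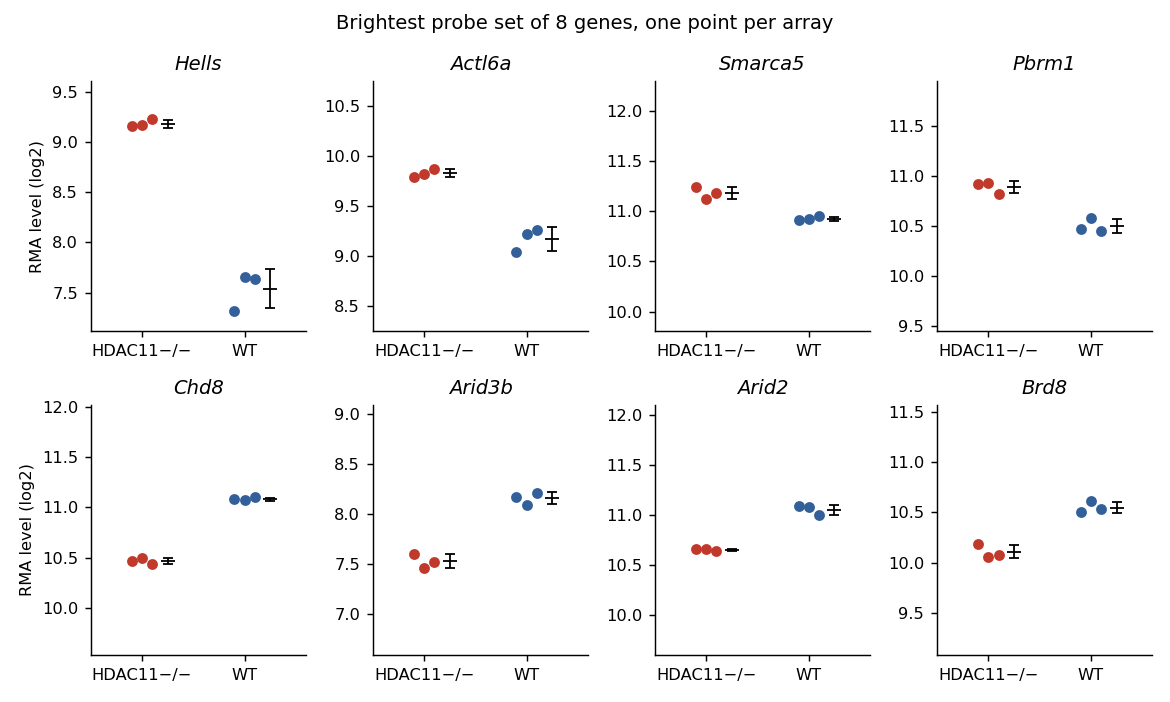
RMA level (y axis, log2; each panel spans the same range) of the brightest probe set of 8 genes, 1 point per array, HDAC11-/- left and WT right, with mean and SD of 3 arrays beside the points. The genotypes do not overlap in any panel: the upper row is higher in HDAC11-/- and the lower row lower, with Hells showing the widest gap, and on the scale of the cre spike-in Arid2 and Brd8 turn to the higher side.

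None of 6 ISWI-group members was called by the brightest probe set. Smarca5 (SNF2H), the main ISWI ATPase, had 11.24, 11.12 and 11.18 in HDAC11-/- arrays, against 10.91, 10.92 and 10.95 in WT arrays, a difference of 0.26 (SE 0.05, adjusted p = 0.00611). Its dimmer probe sets differed by 0.44 (adjusted p = 0.000987) and 0.17 (adjusted p = 0.452), all in one direction. Of the 4 large subunits measured that pair with ISWI ATPases, Bptf, Baz2a and Baz1b had a probe set called lower, while Baz2b differed by -0.08 with overlapping genotypes (adjusted p = 0.226).

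Bptf, the histone-reading subunit of the NURF complex, was lower in all 4 of its probe sets. The brightest had 11.53, 11.49 and 11.47 in HDAC11-/- arrays, against 11.89, 11.85 and 11.85 in WT arrays, a difference of -0.37 (SE 0.04, adjusted p = 0.00085). A dimmer one had 10.39, 10.19 and 10.1 in HDAC11-/- arrays, against 11.4, 11.22 and 11.19 in WT arrays, and fell by 1.04 (SE 0.09, adjusted p = 0.000275). The other two differed by -0.46 (adjusted p = 0.00103), not called, and by -1.07 (adjusted p = 0.0412), called, with a call that was lost without HDAC11-/- array 2 or 3 (adjusted p of 0.104 and 0.12) and without WT array 1 or 2 (0.0641 and 0.0596).

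Baz2a (TIP5), a subunit of the nucleolar remodelling complex NoRC, was also lower in all 3 of its probe sets. The brightest had 10.49, 10.43 and 10.47 in HDAC11-/- arrays and 10.84, 10.8 and 10.82 in WT arrays (a difference of -0.36, adjusted p = 0.000971). The dimmer ones fell by 1.2 (SE 0.19, adjusted p = 0.00243) and 0.66 (SE 0.15, adjusted p = 0.0121), the smaller of which was -0.52 without WT array 1. Baz1b (WSTF), which partners Smarca5, had a brightest probe set at 10.35, 10.38 and 10.38 in HDAC11-/- arrays and 10.47, 10.42 and 10.38 in WT arrays. That is a difference of -0.05 (adjusted p = 0.394). Of 3 dimmer probe sets, 1 was called, lower by 1.01 (SE 0.18, adjusted p = 0.0043), with 5.61, 5.31 and 5.19 in HDAC11-/- arrays against 6.74, 6.3 and 6.11 in WT arrays. Another was higher by 0.3 (SE 0.09, adjusted p = 0.0307) with no overlap between the genotypes, and the last differed by -0.19 (adjusted p = 0.0912).

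Of 6 CHD members 1 was called lower by the brightest probe set, against 3.72% of all genes. Past the adjusted p, 3 lay in the lower direction and none in the higher, against 23.2% and 22.9% of all genes. The CHD median was -0.15 (0.33 on the cre scale). Chd8, a helicase known to bind beta-catenin and restrain Wnt target genes, had 10.47, 10.5 and 10.44 in HDAC11-/- arrays, against 11.08, 11.07 and 11.1 in WT arrays. The arrays of each genotype lay within a narrow band, and Chd8 fell by 0.61 (SE 0.04, adjusted p = 0.000116), a 1.53-fold difference. It was called under each alternative tried except a 2-fold threshold and scaling on cre, where the difference was -0.13 (adjusted p = 0.0418). Chd6, a relative of Chd8, differed by -0.32 (SE 0.05, adjusted p = 0.00203), with 8.5, 8.5 and 8.54 in HDAC11-/- arrays against 8.8, 8.81 and 8.89 in WT arrays.

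Chd4, the ATPase of the deacetylase complex NuRD, was at 10.55, 10.59 and 10.54 in HDAC11-/- arrays by its brightest probe set, against 10.61, 10.62 and 10.66 in WT arrays. This is a difference of -0.07 (SE 0.04, adjusted p = 0.221). Both dimmer Chd4 probe sets fell, by 0.86 (SE 0.22, adjusted p = 0.0202) and 0.81 (SE 0.19, adjusted p = 0.0131). In the one that fell by 0.86 the levels were 9.27, 8.91 and 8.67 in HDAC11-/- arrays and 10.24, 9.69 and 9.49 in WT arrays, and its call was lost without HDAC11-/- array 2 or 3 (adjusted p of 0.0597 and 0.0639).

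None of 4 INO80 members was called by the brightest probe set, with a median of 0.06 (-0.08 on reference genes). Ino80c, a small subunit shared by INO80 complexes, had 8.34, 8.31 and 8.35 in HDAC11-/- arrays against 7.93, 8.18 and 7.93 in WT arrays, a difference of 0.32 (SE 0.08, adjusted p = 0.0149). For Ino80e, another subunit, the brightest probe set differed by 0.02 (adjusted p = 0.865), and the dimmer ones by 0.36 (adjusted p = 0.0023) and 0.59 (SE 0.07, adjusted p = 0.000973). The last is the third member probe set called higher, with 7.71, 7.74 and 7.73 in HDAC11-/- arrays against 7.09, 7.03 and 7.28 in WT arrays, and it missed the fold threshold without WT array 1 (0.57) or 2 (0.54) and on reference genes (0.45).

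Of 6 acetyltransferases, none was called by the brightest probe set. Crebbp (CBP), a general coactivator closely related to Ep300, had 8.99, 9.14 and 9.15 in HDAC11-/- arrays, against 8.99, 8.84 and 8.93 in WT arrays. Its difference of 0.17 (SE 0.07) missed the threshold at an adjusted p of 0.0695, and Ep300 and Kat5 were not analysed here. Kat2a (GCN5), the acetyltransferase of SAGA, differed by -0.18 (SE 0.05, adjusted p = 0.0296) by its brightest probe set. Its dimmer probe sets differed by -0.1 (adjusted p = 0.119) and 0.06 (adjusted p = 0.508).

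Kat7 (HBO1), which acetylates histones at replication origins and promoters, had probe sets of opposite sign. The brightest was at 9.27, 9.44 and 9.48 in HDAC11-/- arrays and 9.1, 9.14 and 9.22 in WT arrays, a difference of 0.24 (SE 0.07, adjusted p = 0.0282). The dimmer one had 5.58, 4.99 and 5.31 in HDAC11-/- arrays, against 7.15, 6.66 and 6.61 in WT arrays, and fell by 1.51 (SE 0.19, adjusted p = 0.00111). One of the HDAC11-/- arrays lay below the highest bacterial control for that probe set.

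Among 7 acetyltransferase subunits and readers, 4 lay past the adjusted p in the lower direction and 1 in the higher. Over all genes these shares were 23.2% and 22.9%. The median of the 7 was -0.26 (0.22 on the cre scale). Brd8, the bromodomain subunit of the Tip60/p400 complex, was lower in all 4 probe sets. The brightest had 10.18, 10.06 and 10.08 in HDAC11-/- arrays, against 10.5, 10.61 and 10.53 in WT arrays, a difference of -0.44 (SE 0.06, adjusted p = 0.00111). A dimmer one fell by 1.06 (SE 0.04, adjusted p = 1.36e-05), with 7.32, 7.3 and 7.3 in HDAC11-/- arrays and 8.39, 8.33 and 8.38 in WT arrays, the smallest adjusted p of any member. The remaining pair differed by -1.32 (SE 0.16, adjusted p = 0.000933), called, and by -0.33 (adjusted p = 0.00159), not called.

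Brd1, a scaffold of the Kat7 complex, had 9.3, 9.31 and 9.39 in HDAC11-/- arrays against 9.09, 9.18 and 9.11 in WT arrays, a difference of 0.21 (SE 0.05, adjusted p = 0.0144). Ing4, a histone-reading subunit of the same complex, was read by a single probe set at 3.57, 3.81 and 3.63 in HDAC11-/- arrays and 5.45, 5.23 and 5.14 in WT arrays. All HDAC11-/- values and 2 of 3 WT values lay below the highest bacterial control of their array. The measured means differed by -1.6 (SE 0.1, adjusted p = 6.71e-05), but with most WT values also in that range no least fall is given.

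Of 3 BET members, Brd2 had a dimmer probe set that fell by 0.69 (SE 0.13, adjusted p = 0.00483), with 10.06, 9.83 and 9.7 in HDAC11-/- arrays against 10.77, 10.41 and 10.48 in WT arrays. Its brightest probe set differed by -0.03 (adjusted p = 0.708). The call was lost without WT array 1 (-0.58), and that of the pair without HDAC11-/- array 3 (-0.57). BET proteins bind acetylated histones through a pair of bromodomains and recruit the transcription elongation machinery. All 3 Brd3 probe sets were lower and past the adjusted p, with differences of -0.48, -0.42 and -0.24, and none reached the fold threshold. The brightest reached it on reference genes (-0.62) and without HDAC11-/- array 1 (-0.61).

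Of 5 other ARID genes, 3 lay past the adjusted p in the lower direction by the brightest probe set and none in the higher. Over all genes these shares were 23.2% and 22.9%. The median of the 5 was -0.28 (0.21 on the cre scale). Arid3b, an AT-rich DNA-binding protein, had 7.6, 7.46 and 7.52 in HDAC11-/- arrays, against 8.17, 8.09 and 8.21 in WT arrays. It fell by 0.63 (SE 0.06, adjusted p = 0.000303) and was called under each alternative tried except a 2-fold threshold and scaling on cre, where the difference was -0.15. Arid5a, known for stabilising Il6 mRNA, had 9.35, 9.29 and 9.32 in HDAC11-/- arrays and 9.63, 9.64 and 9.67 in WT arrays, a difference of -0.32 (adjusted p = 0.00137). Arid4b, a subunit of Sin3 deacetylase complexes, differed by -0.28 (adjusted p = 0.00323) by the brightest probe set. Of its 4 dimmer probe sets, 1 was called, lower by 1.07 (SE 0.19, adjusted p = 0.00457), with 7.38, 7.09 and 6.67 in HDAC11-/- arrays against 8.36, 7.92 and 8.07 in WT arrays. The others differed by -0.71 (adjusted p = 0.188), -0.36 (adjusted p = 0.169) and 0.17 (adjusted p = 0.0709).

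The agreement between probe sets of one gene was then set against all genes. All probe sets of a gene had the same sign in 17 of 32 members (53.1%; 11 lower, 6 higher), against 2920 of 4956 genes (58.9%). The median range of log2 fold change within a gene was 0.49 in members and 0.27 over all genes. In 10 of 32 members (31.2%) the brightest probe set was not called while another was called lower, which held for 7.16% of all genes with more than 1 probe set. The reverse, another called higher, held for 1 member (3.12%) and for 4.62% of all such genes. No member was called in both directions, against 16 genes in all.

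**Figure D3:**
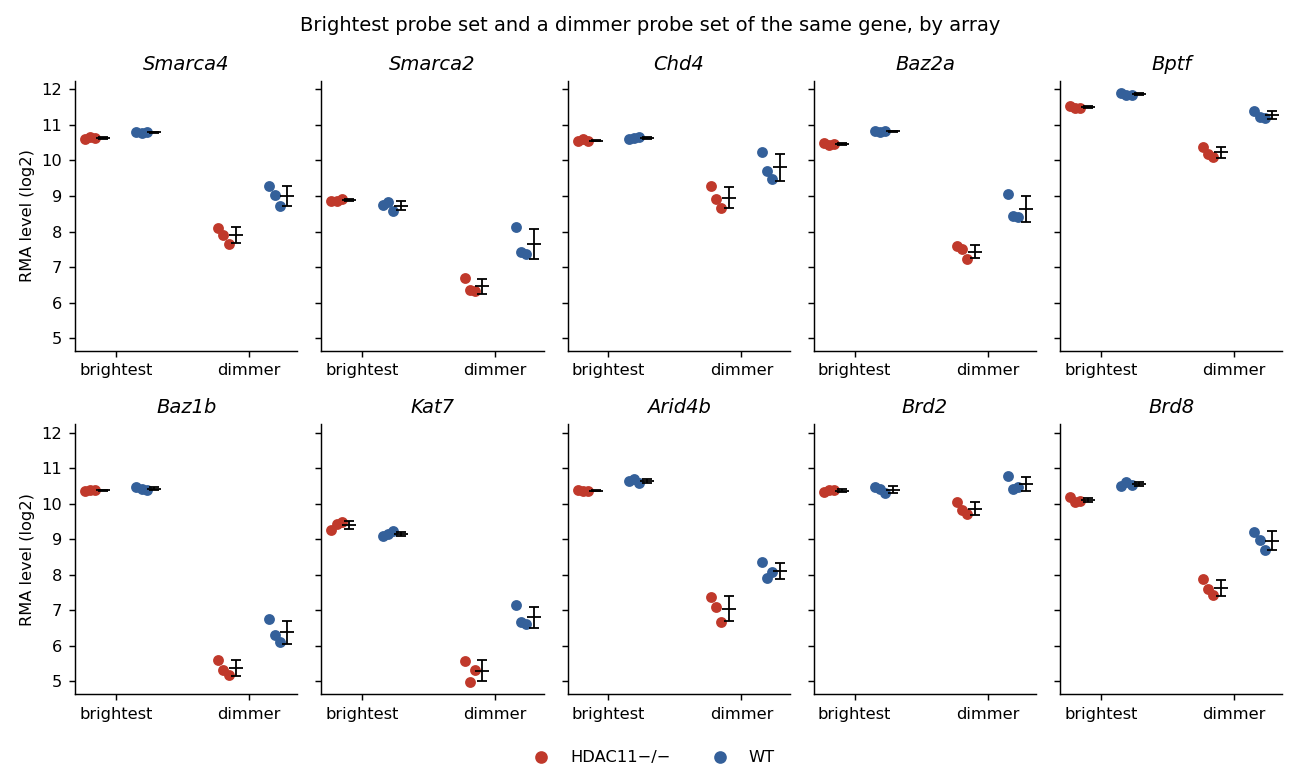
RMA level (y axis, log2) on each array for the brightest probe set and a dimmer probe set of 10 genes; HDAC11-/- points are left of WT points, with mean and SD of 3 arrays. The genes shown are those whose brightest probe set was not called while a dimmer one, shown beside it, was called lower. By this choice every dimmer probe set shown is lower in HDAC11-/- and differs more than the brightest. Other dimmer probe sets of these genes are not shown. The brightest ones differ by between -0.44 for Brd8 and 0.24 for Kat7. On the cre scale these become 0.48 larger, so that all 10 turn positive.

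Subtracting the brightest probe set on the same array cancels any difference in array scale, and tests whether the probe sets changed unequally. Of 54 member pairs, 13 (24.1%) were called with the dimmer probe set lower relative to the brightest, in 11 genes, against 7.05% of 7987 pairs over all genes. In the other direction 2 pairs (3.7%), both of Atrx, were called, against 4.24% of all pairs. Both rest on dimmer probe sets in or near the control range, the filter on dim probe sets removed both, and both lost their call without HDAC11-/- array 2 or 3 (adjusted p between 0.0596 and 0.083). The largest unequal change with the dimmer probe set lower was in Kat7, by -1.75 (SE 0.23, adjusted p = 0.00185), followed by Smarca2, by -1.34 (SE 0.21, adjusted p = 0.00368). Pbrm1 followed at -1.03 (SE 0.21, adjusted p = 0.0108) and Smarca4 at -0.97 (SE 0.17, adjusted p = 0.00587). For the Bptf probe set that fell by 1.04, the unequal change was -0.68 (SE 0.09, adjusted p = 0.00191). The call was lost for the Arid4b pair without HDAC11-/- array 2 (adjusted p = 0.0535), and for a Brd8 pair without WT array 1 (-0.58). Both Chd4 pairs lost their call without HDAC11-/- array 2 or 3, or WT array 1 or 2, with adjusted p between 0.0558 and 0.115.

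The 15 dimmer probe sets called lower shared a profile across arrays that the call did not use. In 15 of 15 (100%) array 1 was the highest array of both genotypes. The same held for 37% of all member probe sets, 24.1% of the brightest ones, 30.8% of all probe sets called lower and 13.4% of all probe sets. It also held for dimmer probe sets without a call, such as those of Pbrm1 at -0.65 and Atrx at -0.94, whose share was not counted. Around the mean of their own genotype, the median deviation of the 15 was 0.24 on HDAC11-/- array 1, and 0.27 on WT array 1. On array 2 it was -0.05 in HDAC11-/- and -0.14 in WT, and on array 3 it was -0.2 in HDAC11-/- and -0.22 in WT. Their errors were accordingly wide, with a median SE of 0.19, against 0.05 for the brightest member probe sets and 0.07 over all probe sets.

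Leaving out array 1 of both genotypes kept 15 of these 15 calls. The difference between the 3′ and 5′ control probe sets, a sign of transcript integrity, was 1.51, 1.63 and 2.06 on HDAC11-/- arrays and 1.52, 1.74 and 1.56 on WT arrays for the transferrin receptor. For Gapdh it was 0.04, 0.02 and 0 on HDAC11-/- arrays and 0.09 on each WT array. For pyruvate carboxylase it was 0, 0.08 and 0.05 on HDAC11-/- arrays and 0.02, 0.36 and 0.24 on WT arrays, and for Actb 0.43, 0.42 and 0.44 on HDAC11-/- arrays and 0.47, 0.53 and 0.51 on WT arrays. Array 1 thus had the lowest difference of both genotypes for the transferrin receptor and pyruvate carboxylase, and of WT for Actb, while for Gapdh it was the highest HDAC11-/- array and the WT arrays did not differ. The part of RNA quality or labelling in the dimmer probe sets was not tested, and no source used here gives the transcript region that each probe set reads.

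**Figure D4:**
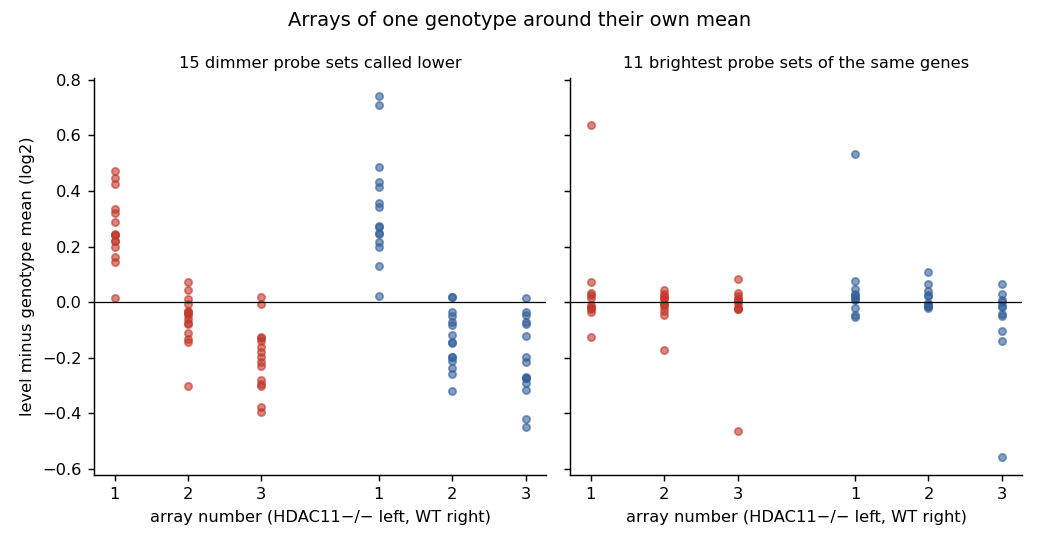
Level minus the mean of the same genotype (y axis, log2) on each array, for the 15 dimmer member probe sets called lower (left) and the 11 brightest probe sets of the same genes (right); HDAC11-/- arrays are left of WT arrays. In the left panel array 1 lies above 0 for every probe set in both genotypes, between 0.01 and 0.47 in HDAC11-/- and between 0.03 and 0.74 in WT, and in the right panel all points except those of Atrx lie between -0.14 and 0.11.

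Paralogues were compared in the same fit through their brightest probe sets, in 10 pairs chosen for related sequence and role. None of the 10 differences in response was called by limma at 1.5-fold, and 6 lay past the adjusted p, as did 6 at an unadjusted p under 0.05. The widest was between the alternative SWI/SNF subunits Arid1a and Arid2, at 0.54 (SE 0.07, adjusted p = 0.00232). Chd7 and Chd8 differed by 0.39 (SE 0.09, adjusted p = 0.0199), and Smarca4 and Smarca2 by -0.32 (SE 0.09, adjusted p = 0.0343). Kat2a and Kat2b differed by -0.05 (SE 0.07, adjusted p = 0.615).

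Partner genes of the same complexes were taken from lists of known subunits and other bromodomain proteins. Of 70 measured, 2 were called higher and 3 lower by the brightest probe set, with a median of 0, against -0.04 over all genes. Over all genes these shares were 3.46% higher and 3.72% lower. Past the adjusted p lay 22 partners in the higher direction and 19 in the lower. Uchl5, a deubiquitinase of INO80, rose by 0.67 (SE 0.05, adjusted p = 0.000175), with 9.7, 9.72 and 9.68 in HDAC11-/- arrays against 8.95, 9.09 and 9.03 in WT arrays. Hat1, which acetylates newly made histone H4, rose by 0.59 (SE 0.08, adjusted p = 0.00158). Of 11 NuRD and ISWI partners, 7 lay past the adjusted p in the higher direction and 1 in the lower, against 22.9% and 23.2% of all genes, with a median of 0.19 (0.05 on reference genes). The exception was Gatad2b, a NuRD subunit, which fell by 0.67 (SE 0.15, adjusted p = 0.0118).

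Of 11 other bromodomain genes, 6 lay past the adjusted p in the lower direction and none in the higher, against 23.2% and 22.9% of all genes, with a median of -0.33 that became 0.15 on the cre scale. Phip fell by 0.82 (SE 0.21, adjusted p = 0.0175), with 9.41, 8.95 and 8.78 in HDAC11-/- arrays against 10.2, 9.82 and 9.58 in WT arrays. Brwd1, a relative of Phip with bromodomains and WD repeats, fell by 0.76 (SE 0.06, adjusted p = 0.000161), with 8.36, 8.27 and 8.32 in HDAC11-/- arrays against 9.17, 9.03 and 9.02 in WT arrays. Both genes had no overlap between the genotypes.

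The direction of small differences depended on the array scale. Scaling on reference genes moved the median of all probe sets by -0.14 and left no member past the adjusted p with another sign. Scaling on the cre spike-in, whose probe sets could also read a Cre transgene, moved it by 0.48, and 13 of the 17 members in the lower direction then had the other sign, among them Arid2, Bptf, Baz2a, Arid5a and Brd8. Hells and Actl6a stayed higher and Chd8, Arid3b, Atrx and Ing4 stayed lower in sign on all of these scales. Of the 15 dimmer probe sets, 15 were still called lower on reference genes and 7 on cre.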

How the data were processed

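RNA of CD4+CD25+ Tregs was hybridised to Affymetrix Mouse430A arrays, 3 per genotype. The deposited values are log2 levels that the authors obtained by RMA with MAYDAY; the methods name SAM, a false discovery rate and a fold threshold for their tests. The 45 control probe sets were left out of the tests. Each of the other 22626 was fitted with limma 3.58.1 in R 4.3.3 (lmFit and eBayes, genotype only), and p-values were adjusted over all of them. Gene symbols came from GEO's platform annotation, where 20380 probe sets had 1 symbol, 691 several and 1555 none, and each gene was read through its brightest probe set. Differences between probe sets of one gene, with 10 paralogue pairs, were fitted likewise over 7987 pairs. A level was in the control range when it did not exceed the highest of 27 bacterial control probe sets on its array. A fold against such a group is given against that level, where most arrays of the other genotype exceeded it. The number of arrays limits the precision.

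Named genes are all members with a called probe set or pair, the 2 of smallest adjusted p in each direction per role, and some fixed coactivators and ATPases. For partners, called genes were named. Members and lists were chosen with earlier results of these data known. Alternatives were SAM, other priors, weights, a replicate block, 3 other scales, a filter on dim probe sets, other thresholds, other probe sets per gene and leaving out arrays. The fits were tested on simulated data.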

Additional observations from a re-analysis of the deposited data

How the results depend on the processing

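Hells kept its call under every alternative tried. Chd8 and Arid3b kept theirs except at 2-fold and on cre, and Ing4 was left out by the filter on dim probe sets and called otherwise. No called member probe set changed its direction on any scale. Of the named probe sets' values, 582 kept their side of the threshold, 17 lost a call and 2 gained one in the alternatives other than cre. Of the member genes past the adjusted p, the 7 in the higher direction became 13 with an intensity trend and robust prior, 3 on reference genes, 12 without dim probe sets and 4 at an adjusted p under 0.01. The 17 in the lower direction became 31 on reference genes and 11 at an adjusted p under 0.01. Member probe sets called higher numbered 1 on reference genes and 1 at 2-fold, and between 1 and 3 with each array left out. Member genes called higher numbered 1 on reference genes, 14 on cre, 1 at 2-fold, 1 by the mean of all probe sets of a gene and 1 without _s_at and _x_at probe sets, and between 1 and 2 with each array left out, where only leaving out WT array 1 took Actl6a away. Member genes called lower numbered 2 on cre, 2 at 2-fold, 9 by the mean of all probe sets and 14 by any probe set. Member pairs called with the dimmer probe set higher numbered 0 without dim probe sets and between 1 and 4 with each array left out. Leaving out array 1 of both genotypes, chosen after seeing the data, gave 21 member probe sets called lower and 13 pairs called lower.

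Over all probe sets, 876 were called higher and 1138 lower (43.5% of calls higher), against 501 and 1911 (20.8%) on reference genes and 7310 and 331 (95.7%) on cre. With the replicate block, 22 member probe sets were called lower and 3 higher, and 4 member genes lower and 2 higher. The deviations of arrays with the same number correlated at 0.23, -0.02 and 0.16, and 4 of 6 arrays correlated best with their own number. The labels do not say what the numbers stand for, so the main limma fit did not take them as pairs. With the block, some adjusted p were smaller, such as for the brightest Atrx probe set (0.000553). The same held for the Chd4 probe set at -0.86 (0.0011) and the Bptf probe set at -1.07 (0.00182). Others were larger, such as for Hells (0.000436) and Chd8 (0.00171). Signal limits Ing4, 1 Atrx probe set in the control range in WT, and 4 member probe sets in that range in both genotypes.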

Other observations

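Some dimmer probe sets were higher without a call, in genes named here after their values were seen. A dimmer Smarce1 probe set, for a DNA-bending SWI/SNF subunit, had 9.26, 9.23 and 9.22 in HDAC11-/- arrays, against 8.74, 8.76 and 8.75 in WT arrays, a difference of 0.48 (SE 0.04, adjusted p = 0.000255). The brightest Smarce1 probe set differed by -0.05 (SE 0.04, adjusted p = 0.382), and the unequal change of 0.53 (SE 0.06, adjusted p = 0.00133) was under the fold threshold. Chd1, a remodeller of transcribed genes, had a dimmer probe set at 8.59, 8.57 and 8.61 in HDAC11-/- arrays against 8.02, 8.18 and 8.18 in WT arrays, a difference of 0.46 (SE 0.06, adjusted p = 0.00102). Its other two probe sets differed by 0.04 and -0.01. In each of these dimmer probe sets the genotypes did not overlap.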
